A study of Schizosaccharomyces pombe with 15 samples.

Results

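Of 1995 Atf1 peaks mapped in fission yeast (Schizosaccharomyces pombe), 692 (34.7%, exact Clopper-Pearson 95% interval 32.6 to 36.8) coincided with a Pcr1 peak and with neither a Deb1 nor an Orc1 peak. The sites were chosen by the measured peak lists themselves: an Atf1 record had to overlap a Pcr1 record by at least 1 bp and to overlap no Deb1 and no Orc1 record. They make up 56.8% of the 1219 Atf1 peaks with a Pcr1 peak, and the 701 Pcr1 records found at them are 44.7% of the 1567 in that list. The other Atf1 peaks fall into 527 Atf1-Pcr1 sites that do overlap a Deb1 or an Orc1 peak and 776 Atf1 peaks with no Pcr1 peak. Which sites belong, and how high their peaks are, follows from the calls and is given as description. Motif, position and base composition took no part in the choice.

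The study mapped the proteins by chromatin immunoprecipitation and sequencing with an antibody against the FLAG epitope. Its 15 samples are 2 precipitates each of Atf1, of Atf1 in a strain with s1Δs2Δ, of Pcr1, of Deb1 and of Orc1, 2 inputs each for Deb1 and Orc1, and 1 untagged sample. They came with 4 peak lists, 1 per protein (Atf1, Pcr1, Deb1 and Orc1). Replicate lists and read depths are therefore not at hand, and p-values below describe differences between classes of peaks within these lists. The strains were homothallic (h90), and all carried the marker alleles ade6-M210, leu1-32 and ura4-D18. The Atf1 strain (atf1-3xFLAG-hph) and the Pcr1 strain (pcr1-3xFLAG-hph) also had the cenH repeat of the mating-type region replaced by 9xtetO-ura4. The Deb1 strain (deb1-3xFLAG-hph) and the Orc1 strain (orc1::5xFLAG-orc1-kan, labelled SPM1047) are given without that replacement. Cells grew at 32 °C in rich medium and spent 2 hours at 18 °C before formaldehyde fixation for 30 min. A peak list from before this cooling is not used here. The s1Δs2Δ, untagged and input samples are not analysed here on their own.

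Atf1 and Pcr1 are ATF/CREB-type basic leucine zipper proteins and sit on DNA as a heterodimer. Atf1 is a target of the stress-activated kinase Sty1, and the pair is known for turning on stress and sexual differentiation genes and for acting in heterochromatin formation at the mating-type region. Their best known DNA elements are the cAMP response element, the palindrome TGACGTCA, and the M26 heptamer ATGACGT of a meiotic recombination hotspot. Both contain the core TGACGT. Of the proteins the rule leaves out, Deb1 is a further DNA-binding factor, and Orc1 belongs to the origin recognition complex, which marks places where replication can start.

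The palindrome is shown first, because it was rare in the genome and many of its copies lay at these sites. On the part of the genome where the lists and the reference share coordinates (chromosomes 1 and 3 and the left part of chromosome 2, called the annotated part, with 562 of the 692 sites), the palindrome occurred 33 times. Of these occurrences 14 (42.4%) lay inside one of the sites, 10 inside an Atf1-Pcr1 site with Deb1 or Orc1, 0 inside an Atf1 peak without Pcr1, and 9 in no Atf1 peak. Counted by Atf1 summits with the palindrome within 100 bp, the 2 Atf1-Pcr1 classes were alike. It stood near 13 of 562 sites (2.31%) and 9 of 423 sites with Deb1 or Orc1 (2.13%), where 22 of all 1609 annotated Atf1 summits (1.37%) had it. The lines give the 10 sites of highest Pcr1 fold with the palindrome within 100 bp of the Atf1 summit, in RefSeq sequence of assembly ASM294v3, 5′ to 3′, named by the protein-coding gene whose start is nearest. Capitals mark the palindrome, which has a core on each strand.
cds1, chr3:740668-740727, plus strand: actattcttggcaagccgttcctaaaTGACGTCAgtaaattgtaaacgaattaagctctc
osh6, chr3:1266955-1267014, plus strand: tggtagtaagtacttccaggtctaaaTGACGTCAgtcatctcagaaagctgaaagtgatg
cgs2, chr3:1812669-1812728, plus strand: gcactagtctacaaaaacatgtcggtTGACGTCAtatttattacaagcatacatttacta
smp4, chr3:955133-955192, plus strand: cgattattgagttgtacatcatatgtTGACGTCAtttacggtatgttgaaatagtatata
isp6, chr1:2544483-2544542, plus strand: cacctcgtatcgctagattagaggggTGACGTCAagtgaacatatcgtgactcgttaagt
yme1, chr3:2287348-2287407, plus strand: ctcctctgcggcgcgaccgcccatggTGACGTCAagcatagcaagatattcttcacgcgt
SPAC26F1.07, chr1:5172124-5172183, plus strand: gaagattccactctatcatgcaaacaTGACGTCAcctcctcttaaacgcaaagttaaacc
emc5, chr1:3784625-3784684, plus strand: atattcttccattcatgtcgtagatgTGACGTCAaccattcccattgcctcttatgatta
SPAC27D7.11C, chr1:4532516-4532575, plus strand: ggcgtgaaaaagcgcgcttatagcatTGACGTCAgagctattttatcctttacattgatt
per1, chr1:3757590-3757649, plus strand: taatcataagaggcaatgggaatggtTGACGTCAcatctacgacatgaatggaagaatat

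The windows named emc5 and per1 were exact reverse complements of each other. Their summits lay 6279 bp upstream of the start of emc5 and 8184 bp downstream of the start of per1, so the gene names only place them. Both sites therefore hold copies of 1 sequence, and whether reads were shared between the copies was not tested. In all 10 windows the palindrome was centred at most 37 bp from the Atf1 summit.

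The site at cds1, which encodes the replication checkpoint kinase, had an Atf1 fold of 5.52 and the highest fold of the whole Pcr1 list, 6.82. Fold here and below is the enrichment over the control at the peak, as the authors' peak caller gave it. At osh6, a gene for an oxysterol-binding protein homologue, the folds were 5.24 for Atf1 and 6.48 for Pcr1, and the summits of the proteins were 2 bp apart. At cgs2, which encodes the cAMP phosphodiesterase, they were 4.87 and 6.05, with the summit 19 bp upstream of the annotated start. At isp6, a vacuolar protease gene, they were 4.90 and 5.39. The lowest of the 10, near per1, had folds of 2.96 and 3.01. Even this Pcr1 fold was above the median of all sites, 2.42. The 10 were picked by Pcr1 fold from 13 sites with the palindrome, so they do not show how low such sites reach.

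A second set of sequences shows the core without the palindrome at sites of very high Atf1 fold. Capitals mark each core. The windows were picked from the 20 annotated sites of highest Atf1 fold because at least 1 core is preceded by an a, which makes the M26 heptamer. Of the same 20 sites, svf1, mug24, wtf25 and tsp0 had a core with neither the heptamer nor the palindrome. The Atf1 fold at svf1, 5.87, was the highest of all sites.
mug143, chr1:1550010-1550067, plus strand: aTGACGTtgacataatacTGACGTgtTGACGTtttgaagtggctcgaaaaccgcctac
SPAC1F12.10C, chr1:3821576-3821633, plus strand: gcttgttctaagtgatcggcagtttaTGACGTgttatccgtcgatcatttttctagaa
ubp15, chr2:870286-870343, minus strand: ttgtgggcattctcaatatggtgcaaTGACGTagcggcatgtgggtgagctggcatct
git5, chr2:1463758-1463815, plus strand: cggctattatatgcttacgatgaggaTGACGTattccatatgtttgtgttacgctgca
les1, chr1:1038234-1038291, plus strand: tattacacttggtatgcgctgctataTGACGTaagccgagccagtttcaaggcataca

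The site upstream of mug143, a gene named for its rise in meiosis, held 3 cores within 100 bp of its summit and had folds of 5.49 for Atf1 and 6.02 for Pcr1. Upstream of git5, which encodes the beta subunit of the G protein that signals glucose to the cAMP pathway, the folds were 5.15 and 5.63. At ubp15, a ubiquitin protease gene, they were 5.30 and 5.68. The 5 summits lay upstream of the annotated start, by 36 bp at mug143 up to 124 bp at SPAC1F12.10C.

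The 692 sites ranged widely in height. The Atf1 fold ran from 1.51 to 5.87 with a median of 2.47, and the Pcr1 fold from 1.48 to 6.82 with a median of 2.42. The 527 sites with Deb1 or Orc1 had medians of 2.80 for Atf1 and 2.83 for Pcr1, and the 776 Atf1 peaks without Pcr1 a median of 1.96. Of the 100 Atf1 records of highest fold, 45 were among the sites, where 34.7% of all Atf1 records were. Of the 100 highest Pcr1 records 50 were at them, where 44.7% of all Pcr1 records were. Both proteins reached a fold of at least 3 at 158 sites (22.8%). Among sites with a gene and sequence assigned this was so at 132 of 562, and at 153 of 423 such sites with Deb1 or Orc1. The sites therefore include some of the tallest peaks of both lists next to many low ones.

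**Figure D1:**
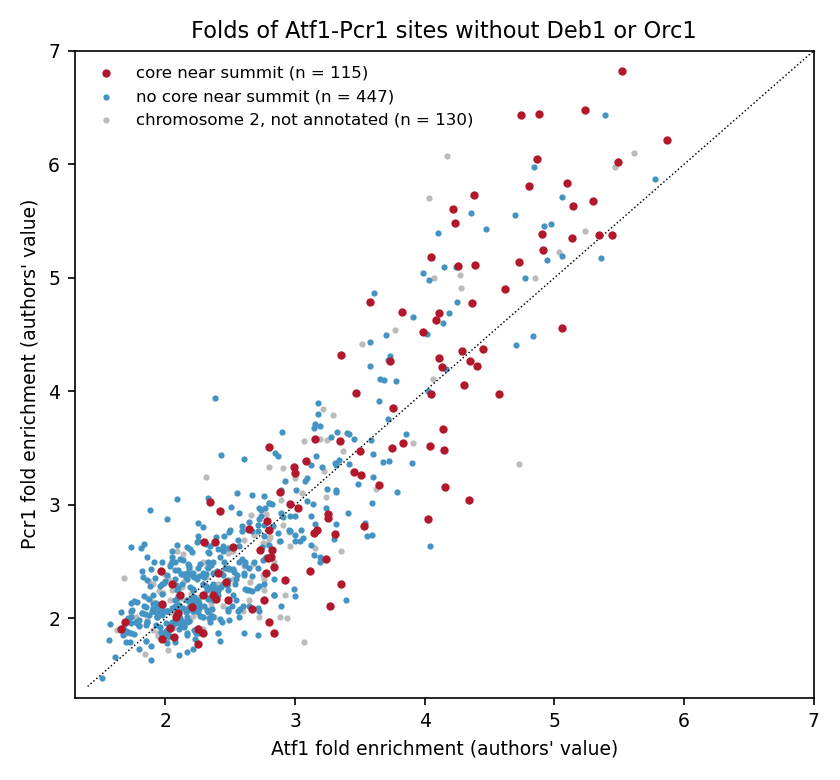
Atf1 fold (x axis) and Pcr1 fold (y axis) at each of the 692 sites, as the authors' caller gave them, with the line of equal fold. Red points are the 115 sites with a core within 100 bp of the Atf1 summit, blue points the 447 sites without one, and grey points the 130 sites on the part of chromosome 2 where sequence was not used. Red points are spread over the whole range and are denser at the upper right.

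Summits of Atf1 and Pcr1 lay close together. Where both summit positions fell inside their intervals (632 sites), the median distance was 34 bp, and it was at most 50 bp at 398 sites (63.0%) and at most 100 bp at 513 (81.2%). At the 470 such sites with Deb1 or Orc1 the median distance was 32 bp. The Pcr1 fold was above the Atf1 fold at 366 of the 692 sites (52.9%), and the median difference of Pcr1 minus Atf1 fold was 0.047. A single Pcr1 record matched each site, except for 13 sites with more than 1.

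Some peaks lay close to the edge of the rule. The sites with the smallest shared stretch with Pcr1 overlapped it by 17 and 20 bp, with Atf1 folds of 2.01 and 2.09. Just outside the rule, the Atf1 peak at 3841300 to 3843033 on chromosome 2 (fold 4.84) overlapped an Orc1 record by 24 bp, and the one at 1969918 to 1970603 on chromosome 2 (fold 2.45) overlapped a Deb1 record by 31 bp. Just inside it, the peak at 3985492 to 3986056 on chromosome 2 (fold 3.07) ended 8 bp from an Orc1 record, and the one at 4448931 to 4449444 on chromosome 2 (fold 2.60) stood 34 bp from a Deb1 record. An Orc1 record lay closer than 500 bp to 91 sites (13.2%) and a Deb1 record to 19 (2.75%). The median gap was 4342 bp to Orc1 and 15187 bp to Deb1. A missing record says that no peak was listed, not that the protein was absent.

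By chromosome, 286 sites lay on chromosome 1, 259 on chromosome 2 and 147 on chromosome 3. They were 56.9%, 57.4% and 55.5% of the Atf1-Pcr1 peaks there. The median gap between neighbouring sites was 10784 bp, and the longest 179836 bp. Wider peaks have more room to overlap another record, and the widths differed: the median width was 359 bp at the sites, 450 bp at the sites with Deb1 or Orc1, and 151 bp at Atf1 peaks without Pcr1.

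Over all heights the ATF/CRE core was more frequent at the sites than in the other two classes of Atf1 peak, though not in every subclass or height range. It stood within 100 bp of 115 of 562 summits (20.5%, 95% interval 17.2 to 24.0), where 15.7% of all 1609 annotated Atf1 summits had it. At Atf1-Pcr1 sites with Deb1 or Orc1 it stood near 62 of 423 summits (14.7%, 11.4 to 18.4), a difference of 5.81 points (two-sided Fisher's exact test with Benjamini-Hochberg adjustment over 6 tests, adjusted p = 0.0229). Within that class the core stood near 9 of 115 summits with Deb1 alone (7.83%), 35 of 229 with Orc1 alone (15.3%) and 18 of 79 with both (22.8%), the last share being above that of the sites. At Atf1 peaks without Pcr1 it stood near 76 of 624 (12.2%, 9.72 to 15.0), a difference of 8.28 points (exact test, adjusted p = 0.000412). Both strands were searched, and overlapping cores of a palindrome counted once. Consecutive windows of the same length, 201 bp, held the core in 3.22% of cases over the whole reference, and windows centred 400 bp upstream of protein-coding starts in 2.25%.

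The first of these differences was lost with long terminal repeats and chromosome ends left out together. Such repeats were touched by 81 of the 423 sites with Deb1 or Orc1 (19.1%) and by 23 of the 562 sites (4.09%). Without peaks at them or within 50000 bp of a chromosome end, the shares were 20.9% of 532 sites against 17.8% of 315 (exact test, adjusted p = 0.342). Other repeated sequence stayed in, such as the copies near emc5 and per1. The first difference also missed the threshold on chromosome 1 alone, around Pcr1 summits and within 50 bp of the Atf1 summit, with differences of 3.20 to 3.93 points. The second difference was lost among Atf1 peaks narrower than 500 bp, with 13.2% against 12.3% (exact test, adjusted p = 0.692).

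**Figure D2:**
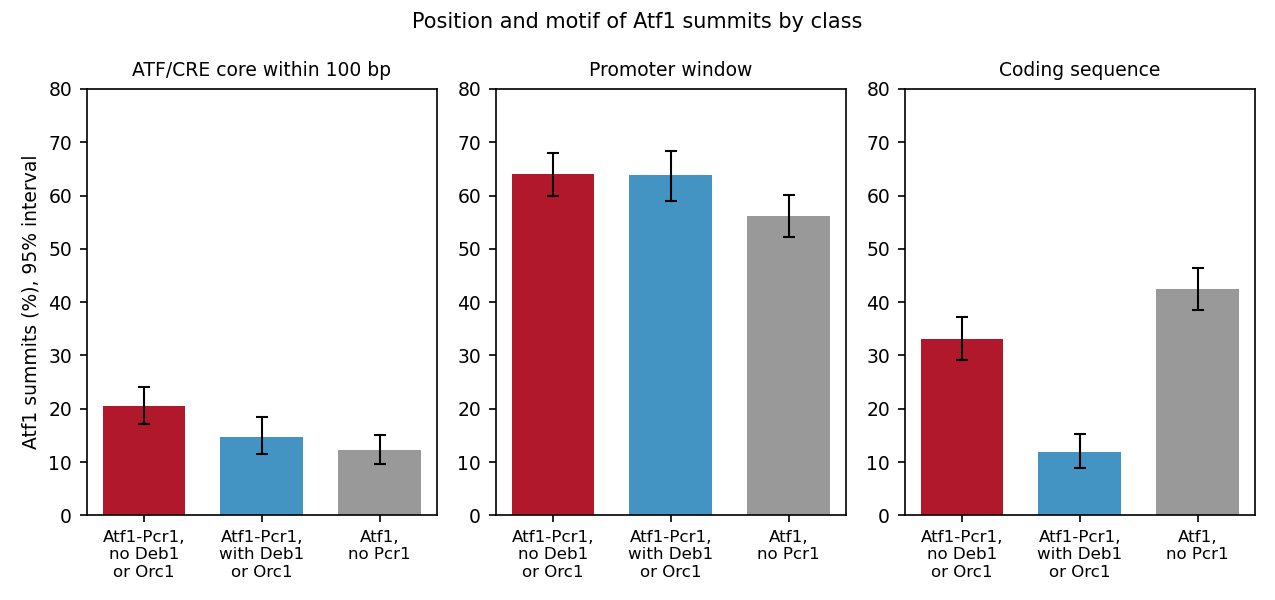
Share of Atf1 summits (y axis, per cent) with a core within 100 bp, in a promoter window and in coding sequence, for Atf1-Pcr1 sites without Deb1 or Orc1 (n = 562), Atf1-Pcr1 sites with Deb1 or Orc1 (n = 423) and Atf1 peaks without Pcr1 (n = 624). Bars are shares and lines exact 95% intervals, which cover counting error only; coding sequence shows the widest spread, 33.1%, 11.8% and 42.5%.

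The core went with height. Below an Atf1 fold of 2 it stood near 5 of 86 summits (5.81%), from 2 to 2.5 near 20 of 209 (9.57%), from 2.5 to 3 near 20 of 105 (19.0%), from 3 to 4 near 27 of 93 (29.0%), and at 4 and over near 43 of 69 (62.3%, 95% interval 49.8 to 73.7). Sites with Deb1 or Orc1 of the same heights held it at 2 of 45, 2 of 103, 16 of 106, 20 of 104 and 22 of 65 summits. In the highest bin their share was 33.8% (22.6 to 46.6). Against Atf1 peaks without Pcr1, the low bins went the other way: below 2 the shares were 5.81% of 86 sites and 12.6% of 340 such peaks, and from 2 to 2.5 the core stood at 20 of 209 sites and 26 of 237 peaks. From 2.5 to 3 the shares were 19.0% of 105 sites and 17.6% of 34 peaks, and above that there were 9 such peaks from 3 to 4 and 4 at 4 and over. The shares in single bins were not tested. Among the sites where both Atf1 and Pcr1 had a fold of at least 3, 43.9% (n = 132) had the core, against 26.8% (n = 153) of such sites with Deb1 or Orc1 (exact test, adjusted p = 0.0167). With long terminal repeats and chromosome ends also left out, these shares were 44.0% and 33.6% (n = 125 and 116, exact test, adjusted p = 0.226).

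**Figure D3:**
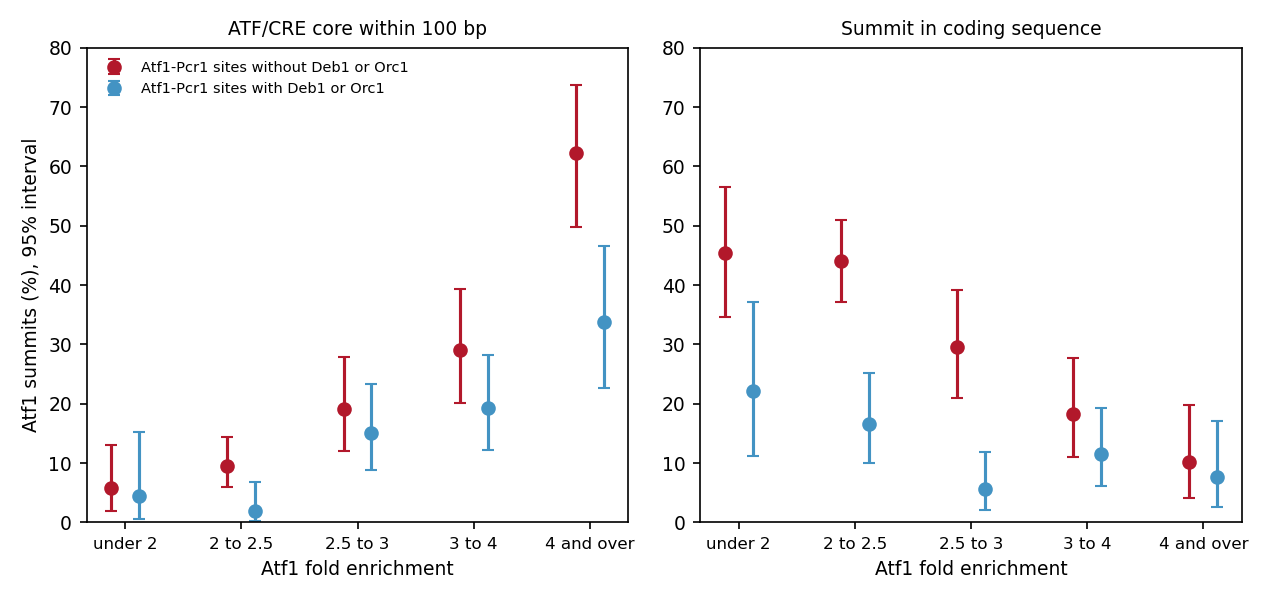
Share of Atf1 summits (y axis, per cent) with a core within 100 bp (left) and in coding sequence (right) by Atf1 fold (x axis), for Atf1-Pcr1 sites without (red) and with (blue) Deb1 or Orc1; lines are exact 95% intervals for counting error. In red, the core share is 5.81% below a fold of 2 and 62.3% at 4 and over, and the coding share is 45.3% and 10.1% in the same bins.

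The core also sat at the summit. Among the 115 sites that had it, 74 (64.3%) had a core centred within 25 bp of the Atf1 summit and 96 (83.5%) within 50 bp. Per 100 sites there were 8.19 and 9.61 cores in the 50 bp to each side of the summit, against at most 1.60 in any 50 bp between 100 and 500 bp away. The median Atf1 fold was 3.35 at sites with the core and 2.35 at sites without it, and the median Pcr1 fold 3.26 and 2.37.

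**Figure D4:**
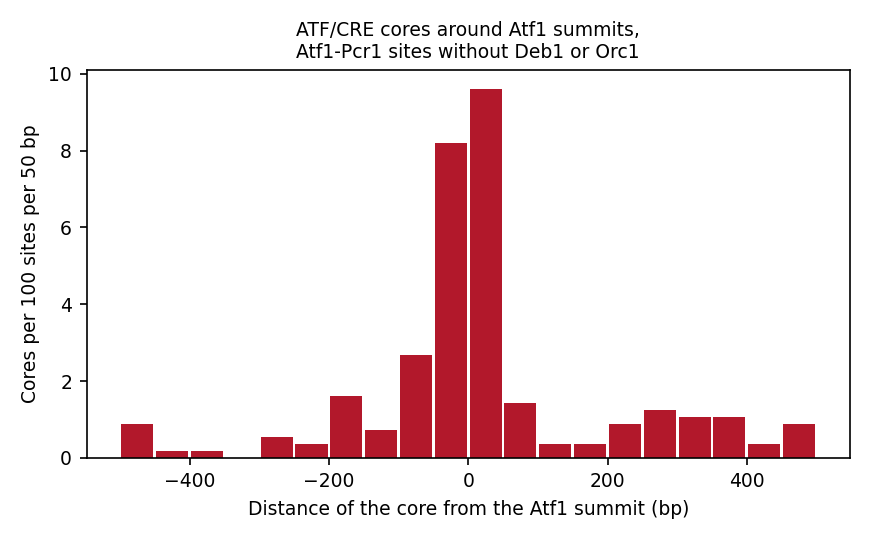
Number of cores per 100 sites (y axis) in steps of 50 bp by distance from the Atf1 summit (x axis, bp), for the 562 annotated sites, with overlapping cores of a palindrome counted once. The bars beside the summit stand at 8.19 and 9.61, and those from 100 to 500 bp away at 1.60 or less.

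The bases around the core were mixed. The a before the core was the most frequent base there, at 47 of 115 sites (40.9%). The M26 heptamer stood at 52 of the 115 sites with a core (45.2%) and the palindrome at 13 (11.3%). Among all 253 annotated Atf1 summits with a core the heptamer stood at 118 and the palindrome at 22. Sites with Deb1 or Orc1 had them at 33 and 9 of 62, and Atf1 peaks without Pcr1 at 33 and 0 of 76. Over the annotated part the heptamer occurred 225 times, with 60 occurrences (26.7%) inside a site, 48 inside a site with Deb1 or Orc1, 37 in an Atf1 peak without Pcr1 and 80 in no Atf1 peak. The plain core occurred 1653 times, and 162 occurrences (9.80%) were inside a site and 1299 (78.6%) in no Atf1 peak. Each longer form thus had a larger share of its copies under an Atf1-Pcr1 site than the core had.

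Most sites had no core near the summit, 447 of 562. Among these, a search over 1369 words of 6 bases within 50 bp of the summit found ATGACG, the heptamer without its last base, with the largest excess. It stood at 59 of 447 sites (13.2%, 95% interval 10.2 to 16.7), against 1.57% of windows outside coding sequence and 2.40% of windows inside it. Core-less summits of the other classes also had it, at 31 of 361 sites with Deb1 or Orc1 (8.59%) and at 40 of 548 Atf1 peaks without Pcr1 (7.30%). The word was chosen for this excess on the same sites, so the values are a description. On chromosomes 1, 2 and 3 it stood at 14.2%, 10.8% and 13.4% of the sites without a core. It was found at 27 of 270 such sites below an Atf1 fold of 2.5 and at 7 of 26 at 4 and over. Together, 174 of the 562 sites (31.0%) had the core within 100 bp or this word within 50 bp. The upstream region of sld3, a gene for a factor that starts replication, shows the word in capitals at a site with folds of 4.92 and 5.46.
sld3, chr1:478891-478948, plus strand: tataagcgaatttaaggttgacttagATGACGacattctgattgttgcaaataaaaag

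The coding share of the sites was near that of all annotated Atf1 summits, and the share was lowest at sites with Deb1 or Orc1. Of the 562 summits, 186 (33.1%, 95% interval 29.2 to 37.2) were inside coding sequence, where 31.1% of all annotated Atf1 summits were. At sites with Deb1 or Orc1 the number was 50 of 423 (11.8%, 8.90 to 15.3), a difference of 21.3 points (exact test, adjusted p = 1.2e-14). Atf1 peaks without Pcr1 had their summit there in 265 of 624 cases (42.5%), 9.37 points more than the sites (exact test, adjusted p = 0.00197). This second call was lost at an Atf1 fold of at least 2.5, where the difference was -0.677 points (exact test, adjusted p = 1), and among peaks narrower than 500 bp, where it was -6.24 points (exact test, adjusted p = 0.118). The excess over sites with Deb1 or Orc1 did not pass the test in tall peaks: at a fold of at least 3 for both Atf1 and Pcr1 the shares were 11.4% and 10.5% (exact test, adjusted p = 0.85). From 2 to 2.5 in Atf1 fold they were 44.0% of 209 and 16.5% of 103.

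Sites in coding sequence had the lower folds. Their median Atf1 fold was 2.23, against 2.65 for the 376 sites outside coding sequence, and the core stood near 15.1% of them, against 23.1%. This core share still lay above the 3.31% of coding windows. The median distance from the start of the gene to the summit inside it was 846 bp. The 6 tallest, named after their values were seen, were in yme1, which encodes a mitochondrial protease (Atf1 fold 5.44, summit 1950 bp from the start), in dak1, a dihydroxyacetone kinase gene (4.35), and in SPCC191.06 (4.18). Next were gyp1, which encodes a GTPase-activating protein (4.16), toa1, for a subunit of transcription factor IIA (4.14), and msh6, a mismatch repair gene (4.04). The peaks in yme1, dak1 and toa1 held a core near the summit, and those in SPCC191.06, gyp1 and msh6 did not.

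Promoters were taken as the 1000 bp before and the 200 bp after each protein-coding start. Such a window held 360 of the 562 summits (64.1%, 95% interval 59.9 to 68.0), where it held 61% of all annotated Atf1 summits. The share at sites with Deb1 or Orc1 was 63.8% (n = 423), and the difference of 0.227 points did not pass the test (exact test, adjusted p = 0.947). That class was itself mixed, with 83.5% of 115 summits with Deb1 alone, 55.5% of 229 with Orc1 alone and 59.5% of 79 with both in a promoter window. Atf1 peaks without Pcr1 had 56.2% there (n = 624), 7.81 points less than the sites (exact test, adjusted p = 0.00956). That difference turned to 3.31 points in the other direction with Atf1 fold held at 2.5 or more, where 71.2% of 267 sites and 74.5% of 47 peaks were in the window (exact test, adjusted p = 0.873). Summits outside coding sequence lay at a median of 117 bp upstream of the nearest start, with quartiles of 55 and 353 bp. At 83 sites (14.8%) the summit was in the windows of genes on both strands, as in a divergent promoter. The same share over other Atf1 summits was not counted, so this number does not set the sites apart. A non-coding gene alone was annotated at 171 summits (30.4%), near the share over all annotated Atf1 summits, 530 of 1609 (32.9%). Sites with Deb1 or Orc1 had 210 of 423 (49.6%) and Atf1 peaks without Pcr1 149 of 624 (23.9%). These shares were not tested.

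Base composition differed between summits inside and outside coding sequence. The AT content within 150 bp of the summit averaged 61.0% ± 5.26 (SD over 562 sites), and 62.4% ± 5.41 over the 423 sites with Deb1 or Orc1. For summits outside coding sequence the means were 63.1% ± 4.36 (n = 376) and 63.1% ± 5.07 (n = 373). Inside it they were 56.8% ± 4.36 (n = 186) and 57.5% ± 5.33 (n = 50). Against Atf1 peaks without Pcr1 the sites had the lower AT content in both places. The means were 61.0% and 62.1% ± 5.48 (n = 624) over all summits, 63.1% and 65.2% ± 4.05 (n = 359) outside coding sequence, and 56.8% and 58.0% ± 4.34 (n = 265) inside it. These differences are given with no test.

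Transfer RNA genes took no part in the rule. Of 155 annotated tRNA genes, 6 (3.87%) had one of the sites within 200 bp, 63 (40.6%) had an Atf1-Pcr1 site with Deb1 or Orc1 there and 19 (12.3%) an Atf1 peak without Pcr1. These counts were not tested.

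The 20 highest annotated sites are named by the gene whose start is nearest, and 17 of the summits lay in a promoter window. In order of Atf1 fold, the first were svf1 (Atf1 5.87, Pcr1 6.21), nhp6, a high-mobility-group protein gene (5.78 and 5.87), cds1, mug143 and yme1. Next stood the bZIP factor gene atf21 (5.39 and 6.44, summit 1112 bp upstream of the start), SPAC4H3.03C (5.36 and 5.18), SPAC1F12.10C (5.34 and 5.38), ubp15 and osh6. They were followed by git5, les1, mug24 (5.10 and 5.84), SPCC306.11 (5.06 and 5.19) and wtf25, of a family of meiotic drivers (5.06 and 4.55). The name wtf25 only places its site, whose summit lay inside the gene ski3, 2310 bp downstream of the wtf25 start. Then came psy1, a syntaxin gene (5.05 and 5.71), mdh1, for a malate dehydrogenase (4.97 and 5.47), srx1, for sulfiredoxin (4.94 and 5.16), sld3 and tsp0 (4.91 and 5.25). Of these 20, 12 had a core within 100 bp of the summit. The other 8 were nhp6, atf21, SPAC4H3.03C, SPCC306.11, psy1, mdh1, srx1 and sld3, and in 2 of them, atf21 and psy1, a core stood elsewhere in the peak. On the part of chromosome 2 where genes were not assigned, the highest peaks started at 3167236 (5.61 and 6.10), 2673234 (5.47 and 5.98), 2801318 (5.24 and 5.42), 2960254 (5.03 and 5.23) and 3358672 (4.85 and 5.00).

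At the other end, the 5 sites of lowest Atf1 fold had values of 1.51 to 1.63. The genes with the nearest starts were SPCC569.01C, SPAC22F8.03C, ftm5 and SPACUNK4.17, the fifth site lay at 4548473 to 4548585 on chromosome 2, and the 4 with sequence had no core near the summit. Their Pcr1 folds were 1.48 to 1.95.

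Genes of chosen pathways were then counted by whether a summit of the sites lay in their promoter window. Over all 4090 annotated protein-coding genes this was so for 438, or 10.7%. The lists were chosen with earlier results of these data known, neighbouring genes can share a site, and the counts carry no test.

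The Sty1 pathway, which passes stress signals to Atf1, had a site at 8 of 16 genes, with a median Atf1 fold of 3.59, against 2.47 over all sites. The highest was srk1, a kinase that Sty1 acts through (Atf1 4.88, Pcr1 6.45), with 3 cores within 100 bp of a summit 41 bp upstream of the start. The protein phosphatase gene ptc1 had folds of 4.40 and 4.23, with 1 core. The phosphotransfer protein gene mpr1 (3.85 and 3.62), the sensor histidine kinase gene mak1 (3.59 and 2.73), the bZIP factor gene pap1 (3.59 and 3.57) and the response regulator gene prr1 (3.00 and 2.68) followed without a core. The sites at wis1, the kinase that activates Sty1 (2.47 and 2.29), and at sty1 itself (2.33 and 3.06) were lower. In this list the genes of the cascade thus ranged from the top of the sites to below their median.

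Of 14 stress protection genes 4 had a site: srx1, the glutathione transferase gene gst3 (4.45 and 4.37), the superoxide dismutase gene sod1 (3.32 and 3.13) and the trehalase gene ntp1 (3.00 and 3.28). Another 6 genes of the list had an Atf1-Pcr1 site with Deb1 or Orc1 in the window instead. Carbon genes had a site in 4 of 18 cases, at the glycerol dehydrogenase gene gld1 (4.84 and 5.98), the alcohol dehydrogenase gene adh1 (3.58 and 4.23), the enolase gene eno102 (2.76 and 2.97) and the pyruvate decarboxylase gene pdc101 (2.19 and 2.61). Hexose transporter genes had one at 3 of 7, ght8 (4.36 and 5.57), ght4 (2.07 and 1.79) and ght5 (1.99 and 2.31), with summits 502, 820 and 803 bp upstream. The summit counted for ght4 lay inside the gene mal1 and that for pdc101 inside SPAC1F8.08, both in coding sequence. A higher site inside ght4 itself (4.11 and 4.69) was not counted, since its summit was 538 bp downstream of the start. It had 1 core within 100 bp of the summit, as part of the M26 heptamer.

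Iron uptake genes had a site at 5 of 10, but these were 3 places. The iron permease gene fip1 and the oxidase gene fio1, which act together in iron import, shared 1 (3.45 and 3.58), as did the siderophore genes sib1 and sib2 (3.42 and 3.62), and php4, a regulator that responds to lack of iron, had its own (2.65 and 2.44). Histone genes had one at 4 of 8, with pht1, for the variant H2A.Z, the highest (3.20 and 2.54), then hht2 (2.59 and 2.77), hta2 (2.18 and 2.45) and hht1 (2.16 and 2.05). The summit counted for hht1 was 527 bp upstream of its start, inside the gene hhf1 and in coding sequence. No core stood within 100 bp of these iron and histone gene summits.

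In the list of mating and meiotic entry genes, 3 of 21 had a site. These were ste6, which encodes an activator of Ras (4.83 and 4.48), the pheromone precursor gene map2 (2.35 and 2.64) and mei2, for an RNA-binding protein that starts meiosis (2.13 and 2.30). Genes of the G1-S transition had one at 2 of 14, at the ribonucleotide reductase gene cdc22 (2.21 and 2.37) and the cyclin gene cig2 (2.11 and 1.95). The high peak at cds1, a gene of that list, was not counted there, since its summit was 631 bp downstream of the start. Flocculin genes and their regulators had 1 of 11, at cbf12 (3.18 and 3.80). Ribosomal protein genes had 17 of 107 (15.9%), with low folds: the highest was rpl42 (3.02 and 2.98), followed by rpl2102 (2.76 and 2.82), rpl4302 (2.76 and 2.30) and rpl4101 (2.54 and 2.30), and the median Atf1 fold was 2.17. The summits at rpl2102, rpl4302 and rpl4101 were 183, 87 and 34 bp downstream of the start. Those at rpl2102 and rpl4101 were in coding sequence.

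Genes of heterochromatin factors, had a site at 1 of 21. That gene was clr4, which encodes the histone H3 lysine 9 methyltransferase, with an Atf1 fold of 2.07 and a Pcr1 fold of 2.43 at a summit 116 bp upstream of its start. The list of ATF/CREB factor genes had 0 of 4 and that of origin recognition genes and deb1 0 of 9. In the ATF/CREB list 2 genes had an Atf1-Pcr1 site with Deb1 or Orc1 in the window instead, and in the other list 0. At atf21 the site was further upstream than the window reaches, as given above.

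**Figure D5:**
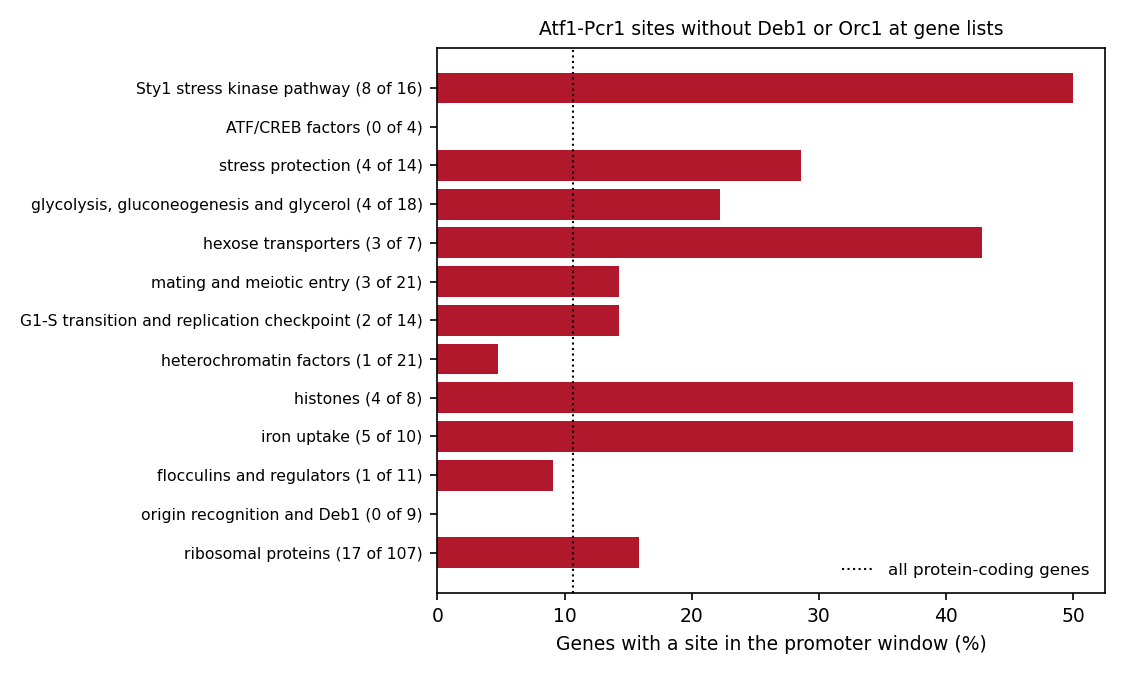
Share of genes (x axis, per cent) of each list that had a summit of an Atf1-Pcr1 site without Deb1 or Orc1 in the promoter window, with the number of genes over the number annotated beside each list name. The dotted line is the share over all 4090 annotated protein-coding genes, 10.7%.

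The mating-type region, taken from 2114219 to 2150579 on chromosome 2 in the lists' coordinates, held 13 Atf1 peaks, and 4 of them met the rule. These bounds include a margin and assume a shift of 12185 bp between the reference and the lists. The scan of shifts left this interval out, so the bounds were not tested and both counts hold only for them. The 4 peaks started at 2114105 (Atf1 2.35, Pcr1 2.12), 2115406 (2.66 and 2.32), 2121791 (1.98 and 2.23) and 2126251 (1.95 and 2.24). Their Atf1 folds lay on both sides of the median of all sites, and each had an Orc1 record within 607 bp, the nearest at 20 bp from the peak that starts at 2121791. Peaks of this region compare strains that differ there, since cenH is replaced in the strains behind the Atf1 and Pcr1 lists.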

How the data were processed

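Atf1, Pcr1, Deb1 and Orc1 were mapped by anti-FLAG chromatin immunoprecipitation and sequencing in 15 samples of 8 groups, and the authors deposited 1 peak list per protein, with 1995, 1567, 351 and 1526 records. Tools listed in the submitters' processing notes are MACS2 2.1.2, bedtools and Bowtie 1.2.3, without settings, thresholds or order of use. The genome build, the control behind each list and the use of replicates are not given in the sources used here. In the deposited lists each peak has the caller's fold enrichment over control, a −log10 q-value and an integer score, as the authors' caller wrote them. No counts come with the lists, so the depth is unknown. A peak list shows only what passed the caller's threshold, and a shared or missing record moves with the depth of each library.

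Records were classed by overlap of at least 1 bp. Sequence and genes came from the RefSeq assembly ASM294v3. A scan of core positions against shifts of the coordinates found no need for a shift on chromosomes 1 and 3 and on chromosome 2 up to 2110000. On the right part of chromosome 2, whose coordinates in the lists run 12185 bp beyond the reference, cores peaked at summits after a shift of 12200 bp, so 130 sites there have no gene, motif or sequence. For 24 sites the summit lay outside the interval, and the midpoint was used. The core TGACGT was sought on both strands within 100 bp of the summit, and AT content measured within 150 bp. Shares were compared by two-sided Fisher's exact tests with Benjamini-Hochberg adjustment over 6 tests and a threshold of 0.05, with exact Clopper-Pearson intervals (95%) that cover counting error only. Python 3.11.15, numpy 2.4.6 and scipy 1.17.1 were used, and the steps were tested on simulated data.

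The sites, gene lists and tests were chosen with earlier results of these data known. Genes named are the 20 sites of highest Atf1 fold on the annotated part, the 5 highest on the rest of chromosome 2, the 5 lowest, those in the mating-type region, up to 4 per gene list, the 10 palindrome sites of highest Pcr1 fold and the 3 nearest to a Deb1 or Orc1 record. For the Sty1 and iron lists all genes with a site are given. Sites in coding sequence were named after their values were seen, as was the sequence word. The windows shown with the M26 heptamer were picked for that form from the 20 highest annotated sites.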

Additional observations from a re-analysis of the deposited data

How the results depend on the processing

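No paired analysis was possible because each protein has 1 peak list and no list per replicate, and for the same reason no replicate could be left out. Differences are in percentage points, the sites minus the other class, with exact-test adjusted p in parentheses. Records below a −log10 q of 10, or Atf1 and Pcr1 records below a fold of 3, were dropped before peaks were classed. In those settings Atf1 peaks without Pcr1 can therefore be peaks with a weaker Pcr1 record. They numbered 59 with both folds at least 3, and 42 with repeats and ends also left out. Repeats left out are annotated long terminal repeats only. The number of sites was 299 with a −log10 q of at least 10, 158 with both folds at least 3, 286 on chromosome 1 and 406 without it, and lay between 158 and 724 over all settings. A stricter overlap rule or the q threshold also applied to Deb1 and Orc1. Sites counted in those settings can therefore overlap a listed Deb1 or Orc1 record by 1 bp or more. The core difference from sites with Deb1 or Orc1 kept its direction in all 18 settings and missed the threshold in 7: 4.99 (0.0555) with no Deb1 or Orc1 within 500 bp, 3.09 (0.342) without repeats and chromosome ends, 3.20 (0.298) from Pcr1 summits, 3.93 (0.366) on chromosome 1, 3.90 (0.128) within 50 bp, 0.186 (1) for the palindrome, and 10.4 (0.226) with both folds at least 3 and no repeats or ends. Against Atf1 peaks without Pcr1 it missed it in 3 of 17: 3.66 (0.0931) from midpoints, 0.915 (0.692) for peaks narrower than 500 bp and 13.05 (0.226) in the combined setting. The coding difference from sites with Deb1 or Orc1 held in 12 of 14 settings, but was 0.906 (0.85) with both folds at least 3 and -0.069 (1) in the combined setting. Against Atf1 peaks without Pcr1 it was -2.27 (0.622) at −log10 q of at least 10, -7.28 (0.269) with both folds at least 3, -7.91 (0.106) on chromosome 1, -6.24 (0.118) for narrow peaks, -0.677 (1) at Atf1 fold of at least 2.5 and -11.8 (0.226) in the combined setting. The promoter difference from sites with Deb1 or Orc1 passed no threshold under these settings and turned to -5.50 with summits within 100 bp, -2.72 at −log10 q of at least 10, -2.36 with both folds at least 3, -3.99 on chromosome 1 and -3.38 at Atf1 fold of at least 2.5. Against Atf1 peaks without Pcr1 it was 7.49 (0.162) at −log10 q of at least 10, 5.90 (0.216) on chromosome 1, 4.87 (0.212) for narrow peaks and -3.31 (0.873) at Atf1 fold of at least 2.5. The AT difference from sites with Deb1 or Orc1 was -2.55 with at least 50% of the Atf1 peak covered, -0.185 at −log10 q of at least 10, -0.523 without repeats and ends, -0.838 without chromosome 1, -0.579 within 50 bp and 0.792 with both folds at least 3. The causes were not tested. The narrow-peak, fold of 2.5, non-coding and combined settings were chosen after seeing the data.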
